A study of Homo sapiens with 41 samples.

Results

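The first wave of the serum response was examined by setting the libraries of 20, 30 and 40 min after serum against those of 0 and 10 min, 5 of the 41 libraries of the course. All were made from T98G, an established human glioblastoma cell line. Cells were seeded separately for every time point, kept for 72 h in medium without serum and then given medium with 20% fetal calf serum. The 0 min cells were starved and received no serum before harvest, whereas the 10 min cells had already been in serum for 10 min. All 41 cultures were treated alike apart from the time in serum. In every case 1 total RNA library depleted of ribosomal RNA was sequenced per time point. No time point had a replicate, so neighbouring time points stood in for replicates, and every p-value below measures a difference against the spread between neighbouring cultures, which includes any change over time within a window.

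The 3 libraries of 20 to 40 min held 18206982, 40724885 and 40802454 counts, against 38732111 and 36986866 counts in the libraries of 0 and 10 min. The 20 min library was the shallowest of the series, in which totals reached 64948114. Markers of mesenchymal glioma were abundant, with 34420 to 45890 normalized counts of VIM and 13750 to 15400 of CD44 in the 5 libraries. Among glial genes of the same marker list, GFAP, S100B and SOX2 did not exceed 3.24 normalized counts in any of them, OLIG2 had 8.30 to 29.5 and NES 24.8 to 35.3. PTPRC of leukocytes reached at most 8.96 normalized counts, and CDH1 of epithelium, CLDN5 of endothelium, RBFOX3 of neurons and HBB of erythroid cells were at 0. Other members of these lists were present, with 64.9 to 77.7 normalized counts of ITGAM, 666 to 942 of MAP2, 395 to 510 of SNAP25, 318 to 405 of KRT8 and 1385 to 1805 of KRT18. Lower counts were seen for VWF (11.2 to 30.2) and PECAM1 (12.95 to 14.52) of endothelium. The erythroid genes HBA1 and HBA2 had 19.7 and 14.5 normalized counts at 0 min and 2.03 each at 40 min. In bulk RNA, a change in every cell and a change in some of the cells cannot be told apart, nor can fewer cells of a type and less RNA per cell.

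Quiescent cells answer serum first with immediate early genes, which need no new protein for their induction. Growth factors and lysophospholipids in serum activate the ERK cascade, which phosphorylates ternary complex factors bound beside serum response factor (SRF), and actin assembly frees the SRF partner MRTF. The first products are mostly transcription factors such as FOS, EGR and NR4A proteins, together with phosphatases and RNA decay factors that end the signal, and many of their mRNAs are short-lived.

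Of 21629 genes tested, 13 rose between the windows at an adjusted p below 0.01 in edgeR's quasi-likelihood test on the 5 libraries, which is 0.0601% of the genes. No gene fell by this test (0.0%). At an unadjusted p below 0.05 in edgeR, 602 genes were higher (2.78%) and 383 lower (1.77%). Together these were no more than a threshold of 0.05 passes when no gene changes. DESeq2 called 108 genes higher and 5 lower. When the 41 libraries were fitted together in 10 windows, so that each gene's spread was estimated over the whole course, edgeR called 283 genes higher (1.31%) and 31 lower (0.143%) for the same contrast. All 13 genes were among the 283. The 5-library count depended on single libraries: leaving out the library of 0 min gave 22 genes, that of 10 min 32, that of 20 min 93, that of 30 min 9 and that of 40 min 13. It also depended on the filter, because only NR4A2 stayed below 0.01 among the 13801 genes with a mean of at least 50 counts. In 2039 genes (9.43%) all 3 libraries of 20 to 40 min lay above both libraries of 0 and 10 min, and in 1484 (6.86%) all 3 lay below both. Neither share exceeds the 10% that a random order of the 5 libraries gives, so separate windows alone do not mark a change. The median log2 change of all genes was 0.02, and 0.12 when libraries were scaled to the spike-ins.

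The start regions of 4 of the 283 genes are shown first because they carry the elements to which the serum response of such genes is usually ascribed. The first 2 stretches contain CArG boxes, the element bound by SRF, in capitals, and belong to the transcription factors EGR1 and SRF itself. The other 2 contain a full cAMP response element, TGACGTCA, bound by CREB and ATF proteins, and a TATAAA element, both in capitals, and belong to the phosphatase DUSP1 and to PPP1R15A, a regulator of translation. All are from RefSeq on GRCh38.p14, 5′ to 3′ on the strand of the gene.
EGR1, chr5:138465354-138465478, plus strand: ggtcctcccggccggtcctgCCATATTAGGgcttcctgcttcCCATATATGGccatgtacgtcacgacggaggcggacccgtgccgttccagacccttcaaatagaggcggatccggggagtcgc
SRF, chr6:43171209-43171268, plus strand: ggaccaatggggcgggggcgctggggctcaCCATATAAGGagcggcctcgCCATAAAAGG
DUSP1, chr5:172771196-172771335, minus strand: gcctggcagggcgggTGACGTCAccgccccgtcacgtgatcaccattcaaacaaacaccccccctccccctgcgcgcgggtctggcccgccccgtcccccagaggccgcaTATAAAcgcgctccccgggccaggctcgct
PPP1R15A, chr19:48872341-48872420, plus strand: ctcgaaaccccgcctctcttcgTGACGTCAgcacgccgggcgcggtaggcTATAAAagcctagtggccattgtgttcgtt

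Among the 13 genes, 3 encode transcription factors of the immediate early class. NR4A2, an orphan nuclear receptor (ENSG00000153234.13, chromosome 2, 156324437 to 156342348), had 363, 449 and 438 normalized counts at 20, 30 and 40 min, against 29 and 41.6 at 0 and 10 min. The windows were far apart and the level was already near its maximum at 20 min. Its log2 change was 3.57 ± 0.22 (SE, n = 3 and 2 libraries; edgeR adjusted p = 6.96e-05), and it remained below the threshold whichever library was left out. EGR3, a zinc finger factor of the EGR family, had 878, 1392 and 1297 normalized counts at 20, 30 and 40 min, against 34.2 and 60.8 at 0 and 10 min. The rise was 4.66 ± 0.32 on the log2 scale (edgeR adjusted p = 0.00236), with adjusted p = 0.0196 without the 30 min library and 0.0359 without 40 min. KLF6, a zinc finger factor of the Krüppel-like family and the most abundant of the 3, had 3469, 4281 and 4888 normalized counts at 20, 30 and 40 min, against 1115 and 1231 at 0 and 10 min. KLF6 was still climbing at 40 min and changed by 1.85 ± 0.16 on the log2 scale (edgeR adjusted p = 0.00122).

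The other coding genes among the 13 have varied roles. DUSP6, a cytoplasmic phosphatase for ERK (chromosome 12, 89347235 to 89352501), had 1881, 2372 and 2395 normalized counts at 20, 30 and 40 min, against 454 and 638 at 0 and 10 min. It reached its plateau by 30 min (log2 change 2.02 ± 0.18, edgeR adjusted p = 0.00122). ZFP36, which binds AU-rich elements and recruits the deadenylation machinery, had 981, 1513 and 1110 normalized counts at 20, 30 and 40 min, against 299.8 and 366 at 0 and 10 min. Its level at 40 min was already below that at 30 min. The log2 change was 1.86 ± 0.20 (edgeR adjusted p = 0.00774), and 0.0194 without the 0 min library and 0.0218 without 40 min. NFKBIZ, an atypical nuclear IκB protein that controls part of the NF-κB target genes, had 1247, 1603 and 1969 normalized counts at 20, 30 and 40 min, against 335 and 339 at 0 and 10 min. It rose by 2.26 ± 0.20 on the log2 scale (edgeR adjusted p = 0.00122), and the adjusted p was 0.0119 without the 30 min library. RCAN1, an inhibitor of the phosphatase calcineurin, had 3324, 3876 and 4531 normalized counts at 20, 30 and 40 min, against 1083 and 1335 at 0 and 10 min (log2 change 1.69 ± 0.16, edgeR adjusted p = 0.00122). GEM, a small GTP-binding protein that inhibits calcium channels, had 1017, 1181 and 1458 normalized counts at 20, 30 and 40 min, against 311 and 404 at 0 and 10 min. Its log2 change was 1.77 ± 0.19 (edgeR adjusted p = 0.00306), and the adjusted p was 0.0132 without the 0 min library and 0.0202 without 30 min. The last coding gene, KRTAP1-5, a keratin-associated protein, rose at low counts, with 47.0, 62.6 and 72.1 normalized counts at 20, 30 and 40 min, against 7.26 and 11.3 at 0 and 10 min. Its adjusted p of 0.00979 in edgeR lay just inside the threshold, and the call held in 1 of the 5 refits that left out a library.

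The other 4 of the 13 genes do not encode proteins. LNC-LBCS, a long noncoding RNA (lncRNA) on chromosome 6 that overlaps ID4 on the opposite strand, had 49.3, 64.8 and 72.1 normalized counts at 20, 30 and 40 min, against 0 and 1.13 at 0 and 10 min. Summed reads were 153 in the 20 to 40 min libraries and 1 in the 0 and 10 min libraries, a ratio per library size of 120.2 with an exact 95% counting interval of 21.3 to 4779. ENSG00000261026, a lncRNA 3650 bases from EGR3 on the same strand, had 35.8, 45.3 and 41.6 normalized counts at 20, 30 and 40 min, against 1.04 and 0 at 0 and 10 min, from 99 and 1 reads (ratio 77.8, interval 13.6 to 3103). Both were nearly silent in the starved cells and both were called whichever library was left out. MIR23A had 132, 233 and 206 normalized counts at 20, 30 and 40 min, against 21.8 and 24.8 at 0 and 10 min (log2 change 3.05 ± 0.29, edgeR adjusted p = 0.00122). MIR24-2, from the same cluster on chromosome 19, had 114, 117 and 105 normalized counts at 20, 30 and 40 min, against 10.4 and 19.1 at 0 and 10 min (log2 change 2.92 ± 0.29, edgeR adjusted p = 0.00132).

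**Figure D1:**
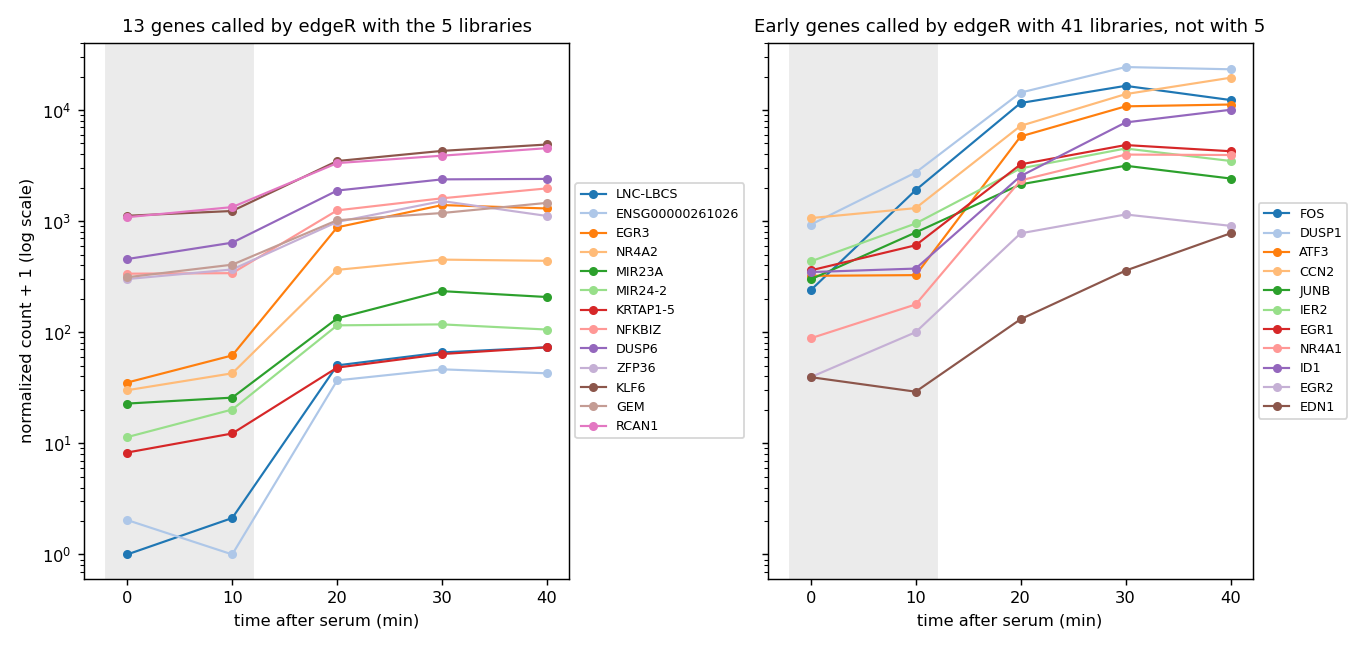
Normalized count plus 1 (log axis) of each gene against time after serum (min), 1 point per library, with the 0 and 10 min window shaded grey. On the left the 13 genes called with the 5 libraries step up between 10 and 20 min by more than they differ within 20 to 40 min; on the right are 11 early genes called by edgeR with 41 libraries and not with 5, of which FOS differed within a window at 1899 and 238 counts at 10 and 0 min.

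These miRNA genes lie inside a longer transcript on the same strand, MIR23AHG, so reads of the miRNA genes and of their primary transcript cannot be told apart, and mature miRNA was not measured. MIR23AHG (chromosome 19, 13823880 to 13842928, minus strand) had 6851, 12168 and 11925 normalized counts at 20, 30 and 40 min, against 1473 and 1848 at 0 and 10 min, lowest of the wave at 20 min, where MIR24-2 was already level. It was called with 41 libraries (log2 change 2.64 ± 0.31, edgeR adjusted p = 1.29e-13) and had an adjusted p of 0.0693 with 5. MIR27A, the remaining member of the cluster, had 69.4, 133 and 96.5 normalized counts at 20, 30 and 40 min, against 9.34 and 21.4 at 0 and 10 min. MIR21, inside the stress-responsive autophagy gene VMP1 on chromosome 17, was high already at 10 min, with 560, 590 and 545 normalized counts at 20, 30 and 40 min, against 143 and 379 at 0 and 10 min (edgeR adjusted p = 0.000233 with 41 libraries). VMP1 itself had 54661, 60051 and 71509 normalized counts at 20, 30 and 40 min, against 27436 and 34496 at 0 and 10 min. Other short genes, 19 snRNAs among them, were like MIR21 at least 1.5-fold higher at 10 than at 0 min. The mature miRNAs encoded by these loci are printed from RefSeq on GRCh38.p14, 5′ to 3′, with the seed, bases 2 to 8, in capitals. No seed is shared by any pair of the 4.
miR-23a-3p, chr19:13836595-13836615, minus strand: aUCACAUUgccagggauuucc
miR-24-3p, chr19:13836289-13836310, minus strand: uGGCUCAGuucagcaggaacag
miR-27a-3p, chr19:13836447-13836467, minus strand: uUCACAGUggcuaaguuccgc
miR-21-5p, chr17:59841273-59841294, plus strand: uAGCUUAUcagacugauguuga

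Many of the best known immediate early genes were called by edgeR with 41 libraries and not with 5, and their values differed widely within a window. The call with 5 libraries depended on the tool, since DESeq2 called 106 of the 283 genes on the same libraries. FOS, which pairs with JUN proteins to form AP-1, had 11554, 16477 and 12281 normalized counts at 20, 30 and 40 min, against 238 and 1899 at 0 and 10 min. The culture at 10 min thus held 7.99-fold more FOS than the starved culture, and the log2 change between windows carried a large error, 3.66 ± 0.99 (edgeR adjusted p = 0.763 with 5 libraries and 1.11e-05 with 41). DUSP1, a nuclear phosphatase for MAP kinases, had 14338, 24328 and 23228 normalized counts at 20, 30 and 40 min, against 927 and 2734 at 0 and 10 min (edgeR adjusted p = 0.339 with 5 libraries and 2.89e-10 with 41). JUNB, a partner of FOS, had 2139, 3147 and 2415 normalized counts at 20, 30 and 40 min, against 298 and 788 at 0 and 10 min. In these 3 genes the 10 min culture lay between the 0 min culture and those of 20 to 40 min.

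In other genes the 0 and 10 min cultures were nearer to each other. ATF3, a stress-responsive repressor of the ATF family, had 5778, 10776 and 11194 normalized counts at 20, 30 and 40 min, against 321 and 325 at 0 and 10 min (log2 change 4.84 ± 0.38, edgeR adjusted p = 0.0273 with 5 libraries and 1.29e-13 with 41). EGR1, whose start region carries the paired CArG boxes printed above, had 3238, 4832 and 4251 normalized counts at 20, 30 and 40 min, against 359 and 604 at 0 and 10 min (log2 change 3.09 ± 0.29, edgeR adjusted p = 0.0271 with 5 libraries). In both genes the windows were separate, and the values at 20 min were well below those at 30 min. SRF itself had 1120, 1952 and 2155 normalized counts at 20, 30 and 40 min, against 494 and 548 at 0 and 10 min, a log2 change of 1.75. MYC, the regulator of growth genes, had 1397, 2353 and 2766 normalized counts at 20, 30 and 40 min, against 734 and 724 at 0 and 10 min, a log2 change of 1.58.

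Several genes were still climbing steeply at 40 min. ID1, an inhibitor of bHLH transcription factors and a target of BMP signalling, had 2540, 7720 and 10035 normalized counts at 20, 30 and 40 min, against 346 and 373 at 0 and 10 min (log2 change 4.24 ± 0.74, edgeR adjusted p = 0.325 with 5 libraries and 1.27e-09 with 41). EDN1, the vasoconstrictor and mitogen endothelin-1, had 130, 357 and 775 normalized counts at 20, 30 and 40 min, against 38.4 and 28.1 at 0 and 10 min (log2 change 3.69 ± 0.94, edgeR adjusted p = 0.691 with 5 libraries and 5.66e-07 with 41). Within the window of 20 to 40 min the EDN1 values differed more between neighbours than those of any of the 13 genes. CCN2, a secreted matrix protein, had 7193, 13884 and 19497 normalized counts at 20, 30 and 40 min, against 1062 and 1307 at 0 and 10 min. GADD45B, a stress sensor, had 1182, 2782 and 3774 normalized counts at 20, 30 and 40 min, against 569 and 360 at 0 and 10 min, so that it was lower at 10 min than at 0 min. HES1, a repressor downstream of Notch, had 300.1, 876 and 1468 normalized counts at 20, 30 and 40 min, against 299 and 195 at 0 and 10 min, and was not called with 41 libraries (edgeR adjusted p = 0.0164).

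The lists of genes by role are described by how many members were higher with 41 libraries, where 1.31% of all genes were, and by the median log2 change, 0.02 over all genes. Of the 194 coding genes called higher with 41 libraries, 90 stood in at least 1 of the 21 lists, and 15 lists had a member called higher. None of the 408 tested list members was called lower. At the 0.143% of all genes called lower, few or none would be.

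The transcription factors had the largest median of the 21 lists. Of 32 immediate early transcription factors, 24 were called higher with 41 libraries and 3 with 5, and the median log2 change was 1.66. All 3 libraries of 20 to 40 min lay above both of 0 and 10 min in 30, against 9.43% of all genes. EGR and NR4A members were among those with the largest changes. NR4A1, a nuclear receptor related to NR4A2, had 2322, 3965 and 3929 normalized counts at 20, 30 and 40 min, against 87.1 and 177 at 0 and 10 min. NR4A3 had 197, 357 and 706 normalized counts at 20, 30 and 40 min, against 15.6 and 18 at 0 and 10 min. EGR2 had 775, 1145 and 905 normalized counts at 20, 30 and 40 min, against 38.4 and 99.1 at 0 and 10 min. Among the AP-1 genes FOSB followed FOS, with 4703, 7052 and 5786 normalized counts at 20, 30 and 40 min, against 353 and 679 at 0 and 10 min. JUN started from a higher level, with 8526, 9769 and 7538 normalized counts at 20, 30 and 40 min, against 2742 and 4369 at 0 and 10 min. JUND, another JUN protein, was not called, with 750, 1122 and 806 normalized counts at 20, 30 and 40 min, against 605 and 655 at 0 and 10 min. FOSL2 (log2 change 0.37), KLF4 (0.49) and SNAI1 (0.79) were not called either.

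Of 30 other immediate early genes, 20 were called higher with 41 libraries and 1 with 5, with a median log2 change of 0.97. ID3, a relative of ID1, had 1530, 4289 and 4625 normalized counts at 20, 30 and 40 min, against 209 and 263 at 0 and 10 min. IER2, a nuclear immediate early protein, had 2979, 4498 and 3474 normalized counts at 20, 30 and 40 min, against 433 and 950 at 0 and 10 min. TRIB1, a pseudokinase that directs protein degradation, had 4235, 5979 and 6271 normalized counts at 20, 30 and 40 min, against 904 and 1332 at 0 and 10 min. SIK1, a kinase induced by cAMP, has a near-identical annotated copy with which it can share reads, so its log2 change of 2.35 is uncertain. PHLDA1 (log2 change -0.03), RGS2 (0.16) and the histone demethylase KDM6B (-0.02) were not called.

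Feedback inhibitors of the signal itself were uneven. Of 14 tested ERK feedback inhibitors, 5 were called higher with 41 libraries, with a median log2 change of 0.43. DUSP5, a nuclear phosphatase for ERK, had 2233, 4993 and 6074 normalized counts at 20, 30 and 40 min, against 979 and 967 at 0 and 10 min, whereas DUSP4, likewise nuclear, had a log2 change of 0.38 that was not called. SPRY2, an inhibitor of receptor tyrosine kinase signalling, had 970, 1345 and 1591 normalized counts at 20, 30 and 40 min, against 461 and 564 at 0 and 10 min, and SPRY4 (0.50) was not called. Of 12 decay factors of AU-rich mRNAs, ZFP36 and ZC3H12A, an RNA-cleaving enzyme, were called higher with 41 libraries (log2 changes 1.86 and 0.86), and ZFP36L1 (0.12) was not. Of 13 tested cAMP and CREB targets, 8 were called higher, with a median log2 change of 0.61. Of 12 tested TGF-β and BMP feedback genes, 5 were. SMAD7, an inhibitor of TGF-β receptors, had 199, 462 and 718 normalized counts at 20, 30 and 40 min, against 118 and 119 at 0 and 10 min. SMAD6, its counterpart for BMP signalling, had 385, 766 and 926 normalized counts at 20, 30 and 40 min, against 169 and 212 at 0 and 10 min.

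Targets of YAP and MRTF, the coactivators that answer the state of actin, divided. Of 16 YAP and TEAD targets, 6 were called higher with 41 libraries, with a median log2 change of 0.19. CCN1, a secreted matrix protein, had 6029, 9873 and 12992 normalized counts at 20, 30 and 40 min, against 693 and 1108 at 0 and 10 min. NUAK2, a kinase that controls myosin, had 170, 576 and 796 normalized counts at 20, 30 and 40 min, against 83.0 and 73.2 at 0 and 10 min. Of 28 tested cytoskeletal targets of SRF and MRTF, 3 were called higher, and the median log2 change was 0.20. TPM1, a tropomyosin, had 13520, 16168 and 21523 normalized counts at 20, 30 and 40 min, against 8893 and 10350 at 0 and 10 min. LIMA1 and ZYX, which bind actin at bundles and adhesions, had log2 changes of 0.62 and 0.61 and were called. ACTB overlapped between the windows, with 76275, 96874 and 76053 normalized counts at 20, 30 and 40 min, against 61210 and 77714 at 0 and 10 min.

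Secreted signals and inflammatory genes divided as well. Of 29 tested growth factors, cytokines and other secreted regulators of the matrix, 8 were called higher with 41 libraries, with a median log2 change of 0.28. HBEGF, an EGF receptor ligand, had 293, 713 and 929 normalized counts at 20, 30 and 40 min, against 166 and 131 at 0 and 10 min. IL6, an inflammatory cytokine, had 399, 589 and 763 normalized counts at 20, 30 and 40 min, against 147 and 180 at 0 and 10 min. LIF (log2 change 0.28) and CXCL8 (0.95) were not called. Of 17 tested NF-κB targets, 4 were called higher, with a median of 0.21. They included the inhibitors NFKBIZ (log2 change 2.26), TNFAIP3 (1.07) and NFKBIA (0.57).

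Of 32 growth arrest and FOXO targets, 6 were called higher with 41 libraries (18.75%, against 1.31% of all genes), and the median log2 change was 0.10. None was called lower (0), but at the 0.143% of all genes called lower a list of this size would hold none. CDKN1A, the p21 inhibitor of cyclin-dependent kinases, had 941, 1700 and 1755 normalized counts at 20, 30 and 40 min, against 560.2 and 600.2 at 0 and 10 min. CITED2, a coactivator-binding protein, had 3149, 3969 and 3581 normalized counts at 20, 30 and 40 min, against 1327 and 1861 at 0 and 10 min. DDIT4 and PIK3IP1, inhibitors of mTOR and PI3K signalling, had lower values in all 3 libraries of 20 to 40 min (log2 changes -0.44 and -0.46) but were not called (edgeR adjusted p = 0.839 and 0.357 with 41 libraries). Of 18 p53 targets 5 and of 18 circadian clock genes 4 were called higher, the last including PER1, with 237, 385 and 373 normalized counts at 20, 30 and 40 min, against 140 and 150 at 0 and 10 min, and BHLHE40, with 2578, 4272 and 5636, against 1454 and 1424.

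Few or no genes were called in the lists for growth and housekeeping. At the 1.31% of all genes called higher, lists of this size would hold few or none, so these counts do not set them apart. None of 30 ribosome biogenesis and MYC targets was called, with a median log2 change of 0.04 and a range of -0.18 to 0.38. None of 24 genes of S phase and mitosis (median 0.05), 13 mitochondrially encoded mRNAs (0.03) and 15 housekeeping genes (0.06) was called. Among 23 tested cholesterol synthesis genes INSIG1 alone was called (log2 change 0.51), and among 16 heat shock genes the cochaperone DNAJB1 alone (0.49). The 16 tested replication-dependent histone genes had a median of -0.12, or -0.02 with spike-in scaling, and none was called.

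**Figure D2:**
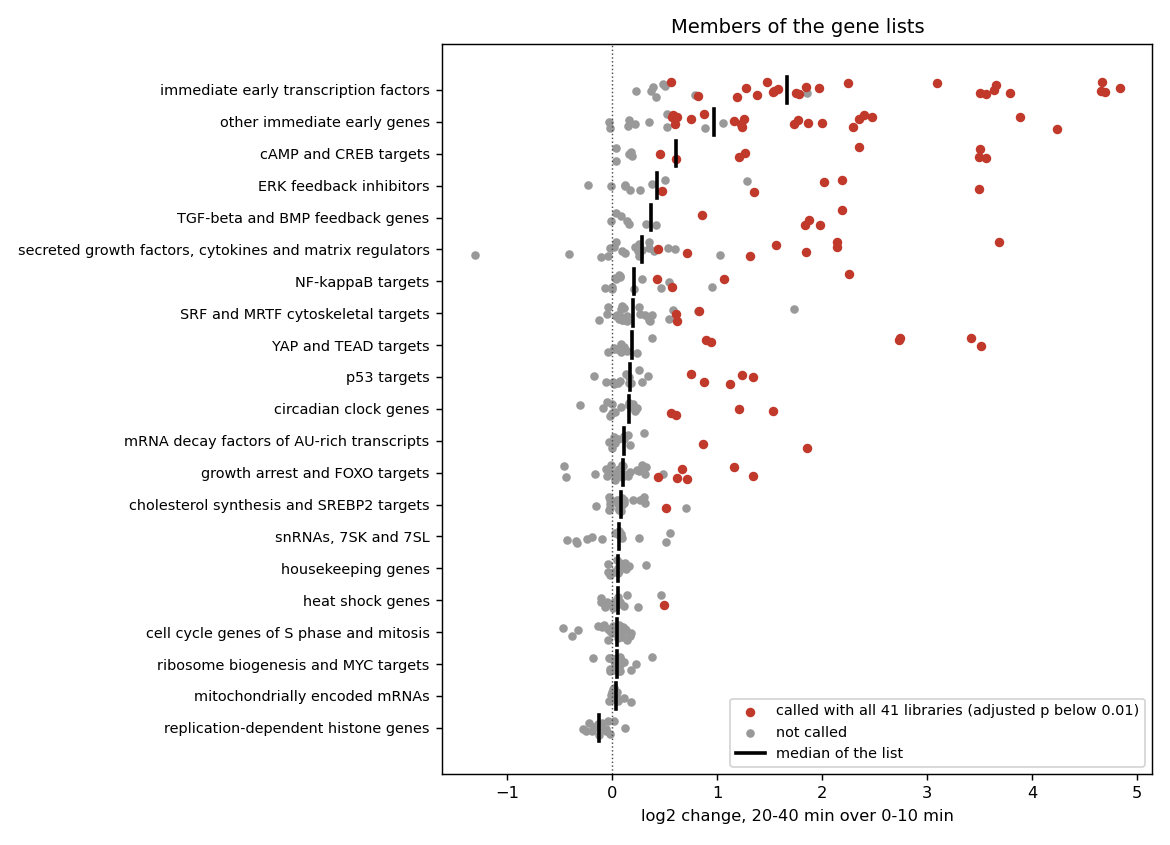
Log2 change of 20 to 40 min over 0 to 10 min (x axis) for each tested member of the gene lists, with members called with all 41 libraries in red, the others in grey and the list's median as a black bar. The immediate early transcription factors lie farthest right with a median of 1.66, and the bars of the ribosome biogenesis, cell cycle and housekeeping genes lie between 0.04 and 0.06.

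Long noncoding RNAs were called higher with 41 libraries about as often as all genes, in 50 of the 3508 tested (1.43%, against 1.31%). Of these 50, 11 (22.0%, 95% Wilson interval 12.8% to 35.2%) had a coding gene called higher within 5 kb, against 62 of all 3508 lncRNAs tested (1.77%). CARMN, a host transcript of miRNAs, had 419, 627 and 720 normalized counts at 20, 30 and 40 min, against 34.2 and 85.5 at 0 and 10 min. ENSG00000257298, inside LIMA1 on its strand, had 146, 681 and 1227 normalized counts at 20, 30 and 40 min, against 51.9 and 42.8 at 0 and 10 min, a log2 change of 3.88 beside 0.62 for LIMA1. THBS1-IT1 inside the matrix gene THBS1 changed by 2.64, and THBS1 by 0.71. TPM1-AS, on the strand opposite TPM1, changed by 2.65 and TPM1 by 0.83. On the same strand, reads of overlapping genes cannot be told apart. The log2 change of the lncRNA exceeded that of its partner in each of the 11 pairs but those of CCN1 and MCL1. The pairs had been picked by the calls of both members, and the part of this choice and of shared reads was not tested. The lncRNAs of the 2 exceptions were that beside CCN1 (1.33, and 3.42 for CCN1) and ADAMTSL4-AS1 (1.13), which overlaps MCL1 (1.25), a survival factor of the BCL2 family.

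**Figure D3:**
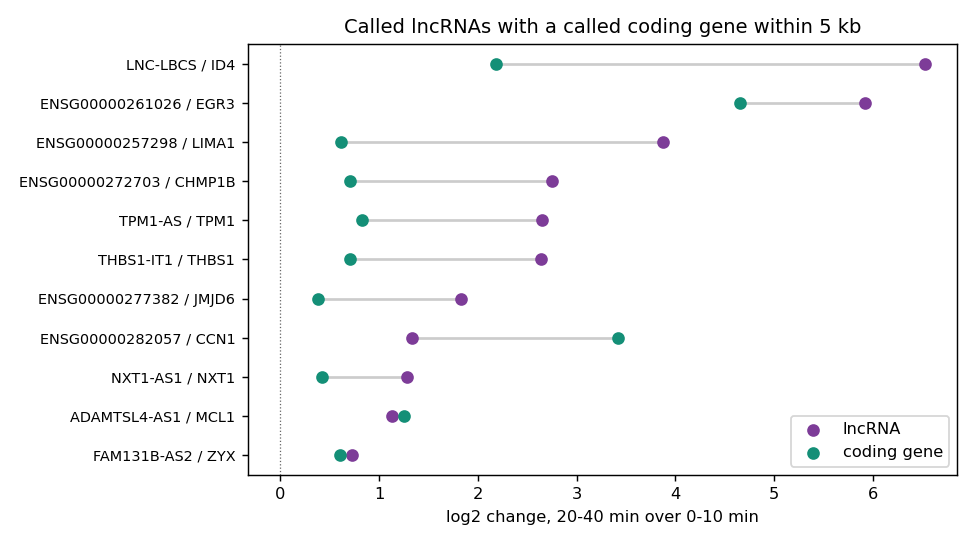
Log2 change of 20 to 40 min over 0 to 10 min (x axis) for the 11 lncRNAs called with 41 libraries (purple) and the called coding gene within 5 kb (green), 1 pair per row. The largest pair values are those of LNC-LBCS at 6.53 with ID4 at 2.19, and ENSG00000261026 at 5.92 with EGR3 at 4.66.

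The 31 genes called lower with 41 libraries were 23 of the 3508 tested lncRNAs, 6 of the 4065 genes of other classes and 2 of the 14056 coding genes. CSKMT, a mitochondrial methyltransferase for citrate synthase, had 213, 215 and 166 normalized counts at 20, 30 and 40 min, against 473 and 283 at 0 and 10 min. It fell by 0.94 ± 0.23 on the log2 scale (edgeR adjusted p = 7.6e-05 with 41 libraries and 0.265 with 5), and by 0.52 when the 0 min library was left out of the 5. The other coding gene, AKAP3, an anchor of protein kinase A, had few counts, with 4.48, 8.63 and 6.09 normalized counts at 20, 30 and 40 min, against 24.9 and 15.8 at 0 and 10 min. PTGES2-AS1, an antisense lncRNA, had 20.2, 9.71 and 5.08 normalized counts at 20, 30 and 40 min, against 50.8 and 29.3 at 0 and 10 min. CAPN10-DT, a divergent transcript, had 121, 91.7 and 87.4 normalized counts at 20, 30 and 40 min, against 167 and 173 at 0 and 10 min, while its coding neighbour CAPN10 had a log2 change of 0.10. Divergent transcripts by symbol were 7 of the 23 lower lncRNAs (30.4%, interval 15.6% to 50.9%), 2 of the 50 higher ones (4%) and 360 of all 3508 (10.3%). None of the 23 had a coding gene called higher within 5 kb, against 62 of all 3508 (1.77%), and coding genes called lower were not searched for. Over the whole course 25 of the 31 genes had their highest window at 0 to 10 min, against 16.6% of all genes, but they had been chosen for a high level in that window.

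At 10 min the library differed from that of 0 min in many genes, with 161 of 14155 genes of at least 50 mean normalized counts at least 1.5-fold higher (1.14%) and 1307 at least 1.5-fold lower (9.23%). With spike-in scaling these counts were 29 and 4766. With 1 library each no test was possible. Of the 232 genes called higher with 41 libraries and as abundant, 28 were at least 1.5-fold and 14 at least 2-fold higher at 10 min, and 154 (66.4%) were higher by any amount, against 57.4% of all genes. FOS, DUSP1, JUNB, EGR2, IER2 and NR4A1 were among the 14. ID4 (23.6 at 10 min, against 60.2 normalized counts at 0 min), ID2 (283, against 526) and CCNL1, a cyclin of splicing (2131, against 3767), were lower at 10 min although called higher at 20 to 40 min. The 161 higher genes were short, with a median span of 4.50 kb against 29 kb for all 14155. Of the 161, 65 were protein-coding and 19 snRNAs, and MIR21 was among them (2.65-fold). Median log2 differences of the 161 from 0 min were 0.70, 0.58, 0.71 and 0.47 at 10, 20, 30 and 40 min. The 1307 lower genes were long, with a median span of 56.4 kb against 29 kb for all 14155, and at 10, 20, 30 and 40 min their median log2 differences from 0 min were -0.83, -0.54, -0.81 and -0.21. MALAT1, a nuclear lncRNA, was one of them, with 386392, 170863, 186840, 152240 and 274859 normalized counts at 0, 10, 20, 30 and 40 min. The part of these library differences in the results between windows was not tested.

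**Figure D4:**
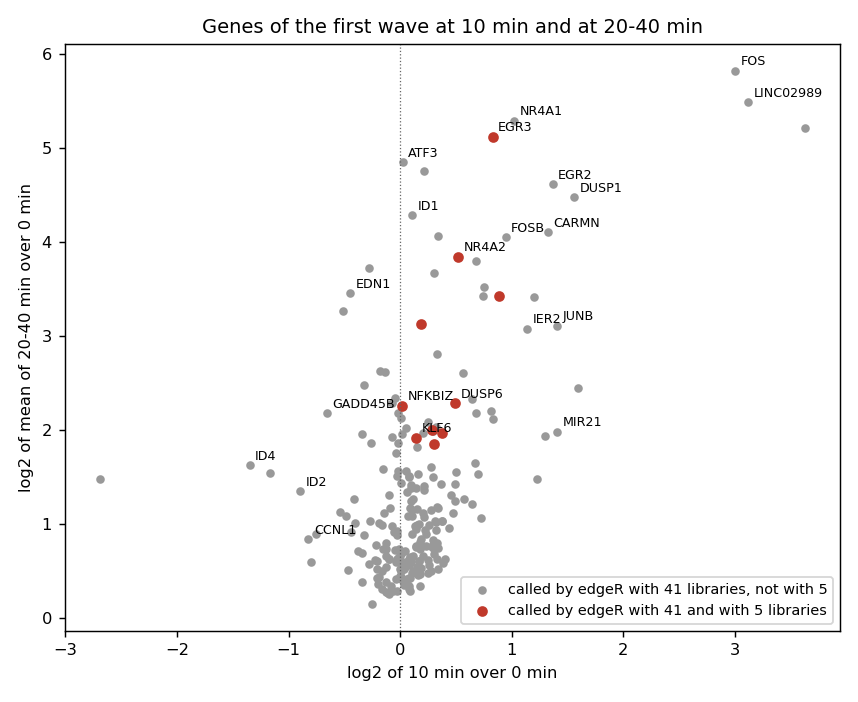
Log2 of 10 min over 0 min (x axis) and of the mean of 20 to 40 min over 0 min (y axis) for the 232 genes called higher with 41 libraries that had at least 50 mean normalized counts, with those also called with 5 libraries in red and both axes sharing the 0 min library. FOS lies at the upper right, 7.99-fold higher at 10 than at 0 min, and ATF3 and ID1 lie near 0 on the x axis.

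The called genes differed in how long they stayed up. Of the 283 genes, 15 had the highest count of the wave in the 20 min library, 70 in that of 30 min and 198 in that of 40 min, and 82 had already reached at least 80% of that count at 20 min. Over the whole course, 67 (23.7%, against 19.5% of all genes) had their highest window mean at 20 to 40 min, 58 at 50 to 70 min and 43 at 80 to 100 min. Among the 13 genes, 7 were highest at 20 to 40 min. Both sets had been chosen for a high level at 20 to 40 min, so these shares only describe them. NR4A2 averaged 416 normalized counts at 20 to 40 min and 5.78 at 350 to 400 min, and ENSG00000261026 averaged 40.9 and 0.50 in these windows. DUSP6 averaged 2216 at 20 to 40 min, 158 at 110 to 140 min, below its starved level, and 709 at 350 to 400 min. NFKBIZ came up again later, with means of 1606 at 20 to 40 min, 619 at 80 to 100 min and 1537 at 150 to 180 min. RCAN1 and GEM went on up, to 8168 at 240 to 280 min and 4653 at 150 to 180 min. EDN1, at 421 normalized counts on average in the wave, averaged 11369 at 150 to 180 min.

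**Figure D5:**
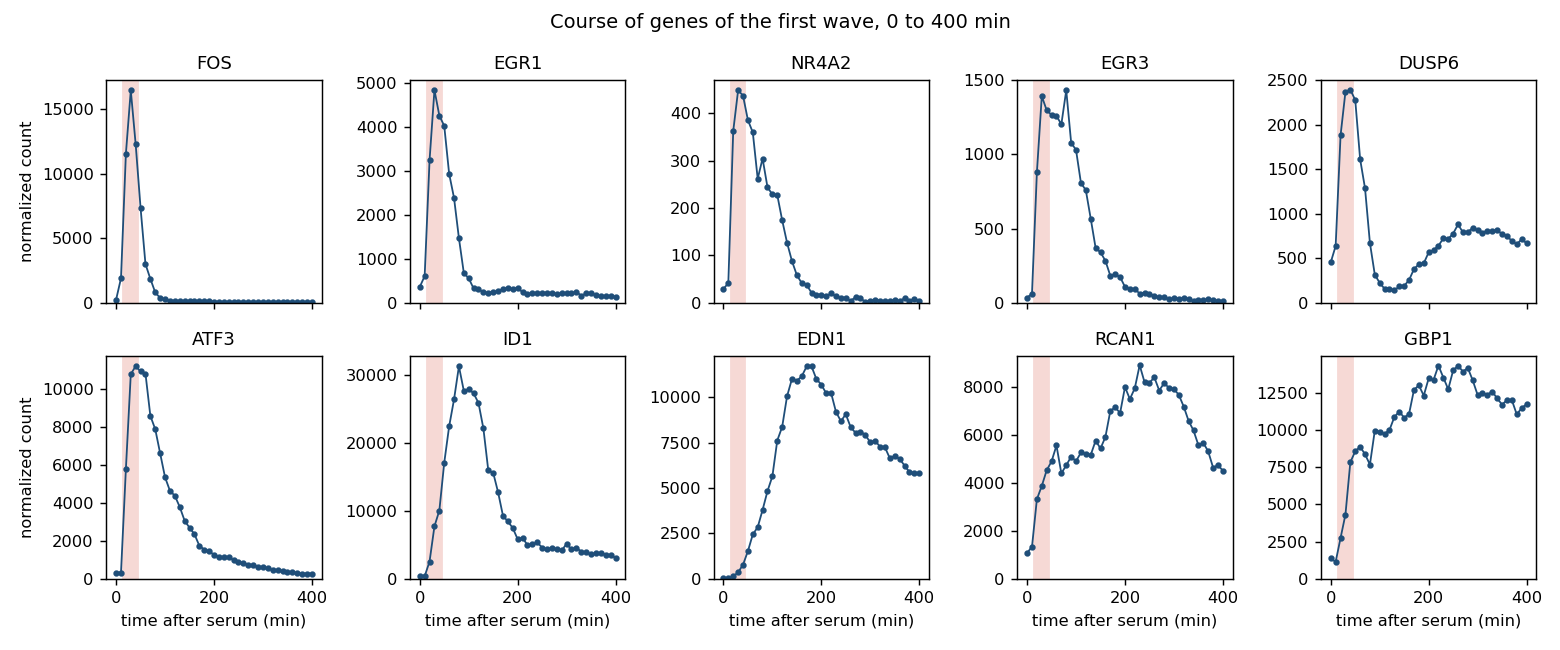
Normalized count against time after serum (min) over the 41 libraries for 10 genes of the first wave, 1 point per library, with 20 to 40 min shaded pink. FOS, EGR1, NR4A2 and DUSP6 peak inside the shaded band, ID1 peaks at 80 min, and EDN1, RCAN1 and GBP1 peak later.

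The coding genes called higher with 41 libraries were compact, with a median span of 12.5 kb and 4 exons in the canonical transcript, against 33.6 kb and 9 exons for all 14056 coding genes tested. Windows from 250 bases upstream of the annotated starts were searched on both strands for 156 of the 194 genes that matched RefSeq (247 windows) and for 11048 of all coding genes (16215 windows). A CArG box, CC followed by 6 A or T and GG, was found in 12 windows (4.86%, 95% Wilson interval 2.80% to 8.30%), against 1.12% of all windows. EGR1, SRF and ZNF548 had 2 boxes each. The others were EGR2, RCAN1, GBP1, BCL2, CCNB1IP1, GPR183, NCOA7, YBX3 and SMTN, a smooth muscle actin-binding protein. The element TGACGTCA was found in 14 windows (5.67%), against 2.43%, and the AP-1 site, TGAGTCA or TGACTCA, in 14 (5.67%), against 3.10%. TRAPPC2B and ZNF547 share the same window with TGACGTCA, which was counted for both. The intervals treat windows as independent, although some genes had several. TATAAA on the gene's strand between 45 and 16 bases upstream was found in 25 windows (10.1%, interval 6.95% to 14.5%), against 1.80%, and FOS, FOSB, JUNB, DUSP1, EDN1, ID1, CCN2, GADD45B and NFKBIZ were among these genes. The GC box GGGCGG was found in 58.7%, against 61.5%, the E-box CACGTG in 8.50%, against 8.07%, and the ETS site CCGGAAGT in 2.43%, against 5.72%. A match is a description of these letters and not a measured binding site.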

How the data were processed

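RNA of T98G cells was sequenced as 125-base read pairs from 1 stranded, rRNA-depleted library per time point, 0 to 400 min. The authors trimmed adapters with cutadapt 1.11, aligned with STAR 2.5.2a (GRCh38), and the deposited counts per gene of GENCODE 29 come from featureCounts (Rsubread 1.34.6). They also deposited a signal table of counts divided by DESeq2 1.24.0 median-of-ratios size factors, and normalized counts here use the same scaling. Totals ran from 18206982 to 64948114 counts per library, and intervals cover counting error only. The spike-in sequences, 77 rows, entered only the spike-in scaling. No column of the table belonged to no sample (0).

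Of 58721 genes, 21629 were kept, each exceeding 10 counts somewhere in the course and 2 counts at 3 or more time points in a row. They were tested with edgeR 4.0.16 in R 4.3.3 (robust quasi-likelihood, windows of 20 to 40 and 0 to 10 min, Benjamini-Hochberg adjustment over all genes, threshold 0.01). The method was tested on simulated data. The same contrast was fitted with all 41 libraries in 10 windows, with a spline of time, with DESeq2 1.42.0, with other scalings, filters and thresholds, and with each library left out. Positions are from GENCODE 44, which matched 99.1% of genes, and sequences from RefSeq.

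The comparison, the gene lists and the rules were chosen with earlier results of these data known. Named genes were those past the threshold with separate windows that had the largest log2 changes (14 coding genes and 5 lncRNAs up, 8 and 5 down), the 5 largest gains and losses of counts, and up to 3 members per list. The same rule was applied to the calls with 41 libraries after the data had been seen, and other genes are named after their values were seen. The authors describe separate seeding for each time point, whereas the labels give the time alone. The p-values measure only the spread between these cultures, which includes any change over time within a window.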

Additional observations from a re-analysis of the deposited data

How the results depend on the processing

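The 13 genes called higher became 73 with spike-in size factors, 196 with no filter on low counts, 1 with a mean count of at least 50, 108 with DESeq2, 283 with all 41 libraries in 10 windows, 447 with a spline of the 41 libraries and 34 at an adjusted p below 0.05. The count of 0 lower genes became 22 with no filter, 5 with DESeq2, 31 with 41 libraries, 80 with the spline and 2 at an adjusted p below 0.05. With each library left out in turn, 9 to 93 genes were higher and 0 to 1 lower. TMM scaling and library size alone each gave 11 higher and 0 lower. All 13 genes were called by DESeq2, the spline, the spike-in scaling, the unfiltered fit and the 41-library fit, and 273 of the 283 by the spline. For the named genes, 62 in number, no alternative reversed the direction (798 values). A 2-fold limit at 10 min gave 33 genes higher and 410 lower in place of 161 and 1307, and spike-in scaling gave 29 and 4766. With 100 bases upstream, the share of windows was 2.83% for the AP-1 site, 3.64% for the E-box and 47.0% for the GC box, against 1.47%, 4.48% and 46.9% of all windows, so that the E-box share went from above to below that of all windows. No paired analysis was possible because each library is a time point of its own and the replicate numbers only name libraries. The 20 min library, with 18206982 counts, limits the values of low genes most, and p-values rest on 3 against 2 libraries.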

Other observations

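Small structured RNAs, which are made by other polymerases or processed from short genes, differed among themselves. RNY3, a Y RNA bound by the Ro protein, had 2945, 2990 and 2508 normalized counts at 20, 30 and 40 min, against 4358 and 4422 at 0 and 10 min. The windows were separate, but edgeR gave an adjusted p of 0.0772 with 5 libraries and 0.377 with 41, and DESeq2 gave 0.00327. RNY1, of the same family, had 602, 596 and 561 normalized counts at 20, 30 and 40 min, against 906 and 812 at 0 and 10 min. Of 54 tested Y RNA genes and copies none was called, with a median log2 change of -0.14. All 3 libraries of 20 to 40 min were lower in 10 of the 54, against 6.86% of all genes. They were higher in 8, against 9.43% of all genes, and the windows overlapped in 36. Among 15 tested snRNAs and other abundant small RNAs none was called. In 5 all 3 libraries of 20 to 40 min were lower than both of 0 and 10 min, against 6.86% of all genes. In 2 all 3 were higher, against 9.43% of all genes, and in 8 the windows overlapped. The median log2 change was 0.06. The minor spliceosome RNA RNU4ATAC had 282, 262 and 267 normalized counts at 20, 30 and 40 min, against 118 and 251 at 0 and 10 min, and RNU11 of the same spliceosome had 408, 408 and 388, against 196 and 368. In both, the 0 min library stood apart. VTRNA1-3, a vault RNA, had 502, 570 and 525 normalized counts at 20, 30 and 40 min, against 274 and 371 at 0 and 10 min, and was called with 41 libraries (edgeR adjusted p = 0.00231).

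HEXIM1, an inhibitor of the transcription elongation factor P-TEFb, had 636, 670 and 662 normalized counts at 20, 30 and 40 min, against 1145 and 740 at 0 and 10 min. The 0 min culture alone was high, and the edgeR adjusted p was 0.0101 with 41 libraries. GBP1, an interferon-inducible GTPase whose start region holds a CArG box, had 2741, 4321 and 7842 normalized counts at 20, 30 and 40 min, against 1367 and 1143 at 0 and 10 min, and was called with 41 libraries (edgeR adjusted p = 4.35e-08).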
